A study of Ovis aries with 16 samples.

Results

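Muscle and liver of sheep exposed to bisphenol A (BPA) before birth were compared in 4 tables of small non-coding RNA. The comparison used all libraries of the BPA animals, 8 of the 16 libraries in the series, from 4 of its 8 animals. Each library is liver or muscle of a single sheep, and the sheep's number (910, 918, 977 or 984) joins the 4 muscle libraries to the 4 liver libraries.

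All animals were female Suffolk offspring. The dams of the BPA animals had received daily subcutaneous BPA, a plastics monomer with oestrogenic activity, at 0.5 mg/kg in corn oil between gestation days 30 and 90. Control dams had received corn oil. At about 21 months, offspring of either group had fasted for 48 h and were sampled 24 h after the second of 2 prostaglandin F2α injections spaced 11 days apart. Liver was cut at the left lobe's tip, and muscle came from the vastus lateralis of the thigh, so every tissue difference below is between whole tissue pieces of fasted, cycle-synchronised adults.

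MicroRNAs (miRNAs) are short RNAs that pair with messenger RNAs and lower their translation and stability. Small nucleolar RNAs (snoRNAs) guide chemical modification of ribosomal RNA and are mostly cut from introns, small nuclear RNAs (snRNAs) form the core of the spliceosome, and long non-coding RNAs (lncRNAs) are longer transcripts that can carry a small RNA inside them. Skeletal muscle is known for a small set of miRNAs made together with its contractile genes, and hepatocytes for another set tied to epithelial identity and lipid metabolism.

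Recovered reads per library, over the 4 tables, ranged from 710101 to 2146593 in these animals. Reads for miRNAs numbered 578150 to 1383538 in liver and 596919 to 1044886 in muscle. Reads for snoRNAs numbered 6054 to 40463 and 9886 to 15915, and reads for snRNAs 877 to 3865 and 1135 to 4515. The lncRNA table held 102095 to 284321 reads in liver and 629329 to 1085241 in muscle. The livers stood apart in pairs over 434 transcripts that share libraries and depth. Deviations from the liver mean correlated by 0.59 between livers 910 and 918 and by 0.38 between livers 977 and 984, but by -0.68 to -0.80 across these pairs. Deviations from a shared mean cancel out, which makes such correlations negative on average. Between muscles they were -0.18 to -0.51. The sample labels give the first pair codes 95 and 96 and the second pair 71 and 72. Values below are deposited normalized counts rescaled by median of ratios over the 8 libraries of a table. They are listed in the order of sheep 910, 918, 977 and 984. A log2 difference is muscle minus liver on the scale log2(value + 1), which understates the change of low transcripts, and a transcript was called at a limma adjusted p under 0.05.

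In all, 434 transcripts were tested, of which 65 were higher and 57 lower in muscle. The miRNA table differed most often: 21 of 75 tested miRNAs were higher in muscle (28%) and 20 were lower (26.7%), together 54.7%. Of the 132 lncRNAs tested, 32 were higher (24.2%) and 29 lower (22%), together 46.2%. Only 15 of 183 snoRNAs were called (8.2%), 8 higher (4.37%) and 7 lower (3.83%), and 5 of 44 snRNAs (11.4%), 4 higher (9.09%) and 1 lower (2.27%). The log2 differences spanned -5.49 to 11.17 for miRNAs, -4.20 to 3.85 for snoRNAs and -7.37 to 11.88 for lncRNAs.

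**Figure D1:**
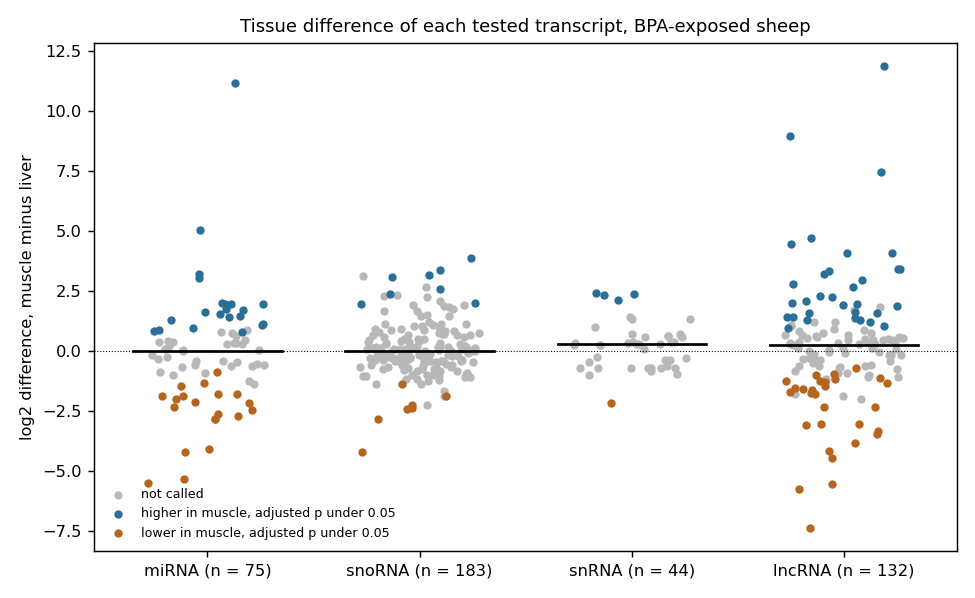
Log2 difference (muscle minus liver, vertical axis) of each tested transcript in the BPA animals, by class (horizontal axis, with the number tested); coloured points passed an adjusted p under 0.05 and black bars are class medians. The miRNA and lncRNA points spread furthest, up to 11.17 and 11.88, and most snoRNA and snRNA points are grey.

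The split into higher and lower calls depended on how the tissues were put on a common scale. With the deposited values, which the authors had scaled within each tissue, 14 miRNAs were higher and 37 lower, and scaling to the total of the table gave 4 and 49. For snoRNAs the deposited values gave 7 higher and 46 lower, and factors taken from the miRNA table gave 37 and 1. For snRNAs the deposited values gave 0 higher and 46 lower, and the miRNA factors gave 35 and 0. For lncRNAs the deposited values gave 49 higher and 16 lower, the table total 8 and 118, and the miRNA factors 106 and 10. The median difference over tested transcripts moved to -1.48 for miRNAs and -2.17 for lncRNAs with the table total, and to 1.12 for snoRNAs, 2.17 for snRNAs and 1.93 for lncRNAs with the miRNA factors. Differences are therefore relative to the middle of each table. Among libraries with codes up to 79, without pairing, 52 miRNAs, 69 snoRNAs, 2 snRNAs and 83 lncRNAs were called; the remaining codes held 2 livers and 1 muscle, too few to test.

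The tissue labels were checked first against miRNAs known to mark muscle and liver. MIR133, the only member of the muscle list in the table, is a muscle miRNA that acts on cardiac and skeletal muscle growth and differentiation. Its values were 92.8, 116, 126 and 463 in liver and 311105, 461262, 418834 and 301920 in muscle. No muscle value came near a liver value, and liver 984 was the highest of the livers. The log2 difference was 11.17 (SE 0.43, limma adjusted p = 5.68e-07). MIR1, MIR206, MIR208, MIR499 and MIR378 of the muscle list were not among the miRNAs in the table used here. Neither were MIR122, MIR192, MIR101, MIR193B, MIR885 and MIR455 of the liver list.

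Both measured liver markers were lower in muscle. MIR194, a miRNA of hepatocytes and gut epithelium, measured 7168, 8375, 7256 and 7447 in liver and 139, 134, 162 and 254 in muscle, a log2 difference of -5.49 (SE 0.27, limma adjusted p = 1.77e-06). MIR148A, abundant in hepatocytes and tied there to cholesterol handling, measured 23904, 26998, 32545 and 45942 in liver and 2278, 1783, 1917 and 1439 in muscle. Its groups were far apart, with a log2 difference of -4.10 (SE 0.28, limma adjusted p = 1.30e-05). The labels and these markers point the same way in all 8 libraries.

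**Figure D2:**
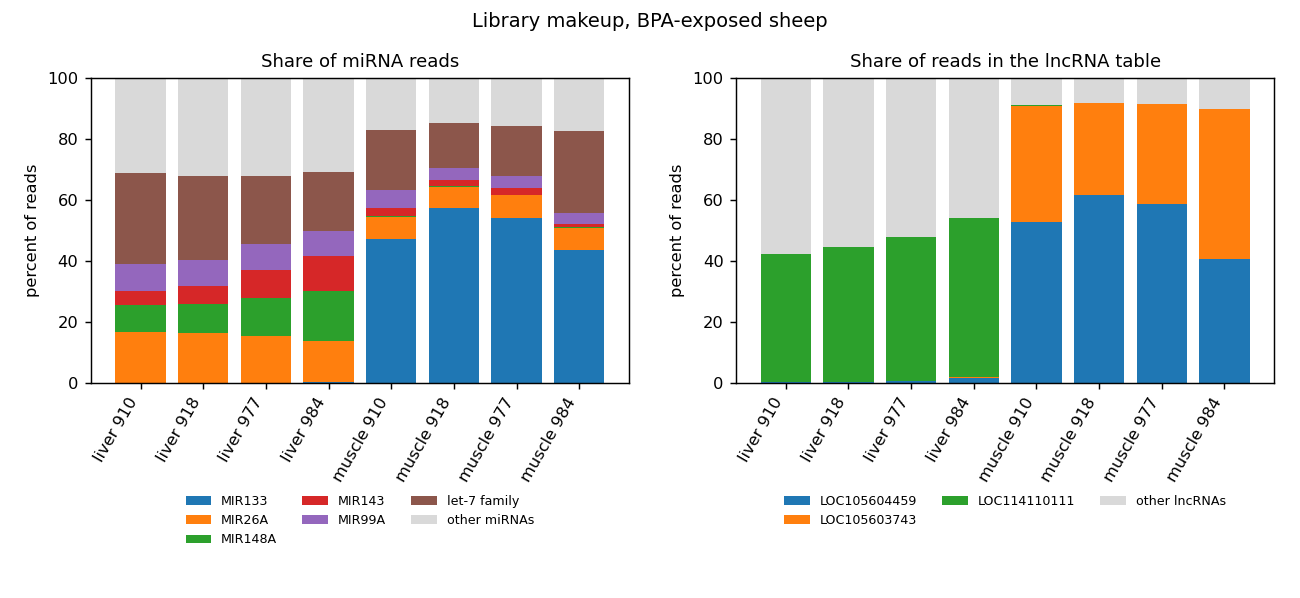
Makeup of each BPA library (horizontal axis, tissue and sheep number): left, percent of miRNA reads taken by 5 miRNAs and the let-7 family; right, percent of reads in the lncRNA table taken by 3 transcripts. MIR133 took 43.6% to 57.4% of the muscle reads of listed miRNAs, and LOC105604459 and LOC105603743 took most of the muscle lncRNA reads.

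A few of the 105 listed miRNAs took much of the miRNA reads in each tissue. Shares are of reads assigned to the listed miRNAs, and miRNAs outside the list, such as MIR1 and MIR122, are not counted. MIR133 took 47.1%, 57.4%, 54.1% and 43.6% of the miRNA reads in muscle and 0.0332%, 0.0396%, 0.0490% and 0.166% in liver. MIR26A, an abundant miRNA of many tissues located in CTDSP2, took 13.5% to 16.7% in liver and 6.77% to 7.27% in muscle. MIR148A took 8.55% to 16.5% in liver and 0.208% to 0.345% in muscle. Within liver the share of MIR148A was lowest in sheep 910 and highest in sheep 984.

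On the rescaled values MIR26A was not called. It measured 46825, 48098, 39132 and 37562 in liver and 46817, 54382, 56259 and 49593 in muscle, overlapping groups with a log2 difference of 0.28 (SE 0.17, limma adjusted p = 0.203). When scaled to the table total, of which MIR133 is a part, it was -1.12. MIR99A, another abundant miRNA, measured 24424, 25656, 21396 and 22478 in liver and 38555, 30880, 29744 and 26440 in muscle. These groups did not overlap, but the log2 difference of 0.41 did not pass the test (limma adjusted p = 0.0831) and became -0.99 with the table total.

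**Figure D3:**
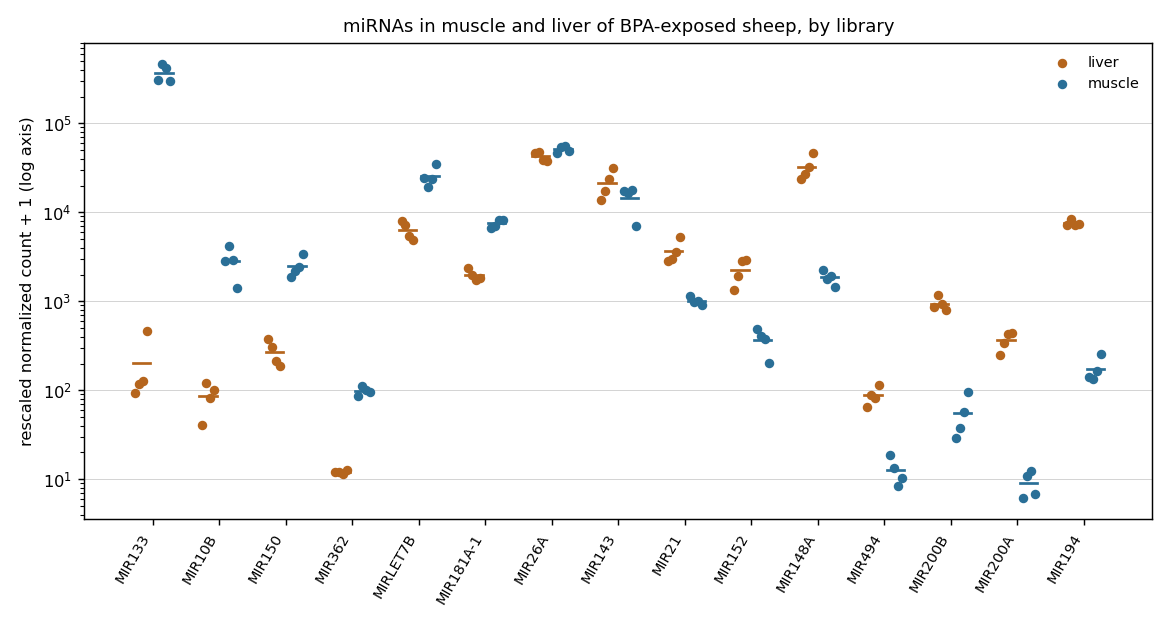
Rescaled normalized count + 1 (logarithmic vertical axis) of 15 miRNAs in the 4 liver and 4 muscle libraries of the BPA animals; points are libraries and bars are means. MIR133 lies between 301920 and 461262 in muscle, MIR194 and MIR148A are high in liver, and MIR26A and MIR143 overlap.

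After MIR133 the largest difference in the same direction was that of MIR10B, whose gene lies inside HOXD4 and belongs to the HOX clusters that lay out the body axis. It measured 40.2, 120, 80.1 and 99.4 in liver and 2863, 4167, 2936 and 1405 in muscle. Every muscle library was above every liver library, and the log2 difference was 5.05 (SE 0.38, limma adjusted p = 1.875e-05). Its relative MIR10A was not called, at 0.36. MIR362, made from an intron of CLCN5, measured 11.1, 11.1, 10.5 and 11.7 in liver and 85.8, 111, 99.4 and 94.0 in muscle. Its log2 difference was 3.02 (SE 0.30, limma adjusted p = 9.85e-05), with little spread inside either tissue.

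MIR181A, a regulator of differentiation, is listed as 2 near-identical copies whose reads cannot be told apart. MIR181A-1 measured 2338, 1989, 1738 and 1839 in liver and 6708, 6940, 8218 and 8300 in muscle, and its log2 difference was 1.93 (SE 0.23, limma adjusted p = 0.000253). MIR181A-2 differed by 1.95. Neither passed the test with the table total.

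The let-7 family, which restrains growth genes in mature tissue, was higher in muscle in 6 of its 7 tested members, with a median of 1.14 against 0.00 over all tested miRNAs and the 28% called higher there. MIRLET7B measured 7921, 7120, 5406 and 4906 in liver and 24255, 19509, 23555 and 35018 in muscle. The groups were separate by a wide margin and the log2 difference was 2.01 (SE 0.27, limma adjusted p = 0.000453). MIRLET7D measured 1765, 1331, 755 and 641 in liver and 3459, 3379, 3086 and 6738 in muscle, with muscle 984 above the rest and a log2 difference of 1.93 (SE 0.40, limma adjusted p = 0.0037). Neither was called with the table total.

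MIRLET7A, the family member with the highest muscle mean, measured 24328, 20605, 12595 and 11826 in liver and 32019, 29657, 32467 and 57250 in muscle. Muscle 984 was again the highest, and the log2 difference was 1.14 (SE 0.32, limma adjusted p = 0.0155). MIRLET7G differed by 0.81 (limma adjusted p = 0.0127), MIRLET7I by 0.83 and MIRLET7C by 1.52, and MIRLET7F, at 0.29, was not called. With the table total no let-7 member was called higher. MIRLET7A moved to -0.26, MIRLET7G to -0.59, MIRLET7I to -0.56, MIRLET7F to -1.11 and MIRLET7C to 0.12, so the family's calls did not hold as a share of miRNA reads. MIRLET7A, MIRLET7G and MIRLET7I also lost their calls on the deposited scale, with quantile normalization and without sheep 977. With edgeR MIRLET7A and MIRLET7G lost theirs too. MIRLET7B, MIRLET7C and MIRLET7D lost theirs under no setting other than the table total or one factor over the tables.

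Families did not always move as a unit. In the miR-30 family, linked to metabolism and mitochondria, MIR30C was higher in muscle by 1.73 and MIR30D by 1.40, whereas MIR30A was lower by -2.33, from 9154 ± 2143 in liver to 1784 ± 76.7 in muscle (SD, n = 4 each). Since this contrast is between members of a table, no common scaling removes it. MIR30B was not called (0.87, limma adjusted p = 0.069). Among relatives of MIR17 and MIR25, which favour cell growth, MIR106B (1.71) and MIR25 (0.87) were higher and MIR106A (-1.997) lower, with MIR17 not called. MIR106A was low in both tissues, with means of 11.4 in liver and 2.71 in muscle and 12 reads over all muscles. It passed the filter only through its liver values. MIR125B, which lies in the MIR10 and MIR125 group, was higher by 1.62. In that group 2 of the 4 tested members were called, near the 54.7% called over all tested miRNAs. With the table total the higher calls named here were lost, at 0.34 for MIR30C, -0.0041 for MIR30D, 0.31 for MIR106B, -0.53 for MIR25 and 0.22 for MIR125B.

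Other small families gave few calls. The 3 tested miR-29 genes, regulators of collagen, gave 0 calls and a median of 0.34, although 2 of them are copies with identical values. Both miR-26 genes were not called. Of MIR23A, MIR23B and MIR27A, which act in vessels and muscle wasting, MIR23B was higher (0.96). MIR107, which acts on insulin signalling, was lower (-0.88) and MIR103 was not called. MIR16B, of a family that slows the cell cycle, was higher by 1.09. MIR22, known in muscle and heart, was higher by 1.43. With the table total MIR23B, MIR16B and MIR22 were not called, at -0.43, -0.31 and 0.03, and MIR107 lost its call in 3 of 22 alternative settings.

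MIR152, which belongs to the same family as MIR148A and lies in COPZ2, was also lower in muscle. It measured 1353, 1932, 2852 and 2937 in liver and 482, 403, 375 and 204 in muscle, and the log2 difference was -2.63 (SE 0.39, limma adjusted p = 0.000689). Liver 910 and 918 were below liver 977 and 984, but all were above every muscle library.

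Markers of other cell types that a tissue piece can hold were measured as well. MIR200A and MIR200B, miRNAs of epithelia such as bile ducts that hold back ZEB1 and ZEB2, were lower in muscle. MIR200A measured 247, 336, 431 and 442 in liver and 5.23, 10.0, 11.5 and 5.80 in muscle (log2 difference -5.35, SE 0.32, limma adjusted p = 5.24e-06). MIR200B measured 856, 1190, 931 and 791 in liver and 28.2, 36.9, 56.5 and 94.0 in muscle (-4.23, SE 0.37, limma adjusted p = 5.08e-05). Neither pair of groups overlapped. MIR200C, at 42.5, 149, 35.9 and 25.6 in liver and 12.6, 17.7, 18.8 and 27.9 in muscle, overlapped and was not called (-1.37, limma adjusted p = 0.0506). It was called lower in 12 of 22 alternative settings, among them TMM (-1.51) and the deposited scale. Summed over the 3, the epithelial list lay between 1145 and 1676 in liver and between 46.0 and 128 in muscle.

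MIR150, a miRNA of lymphocytes and the only member of the leukocyte list present, went the other way. Its values were 375, 310, 213 and 187 in liver and 1868, 2172, 2415 and 3406 in muscle. The groups were separate, and the log2 difference was 3.2001 (SE 0.34, limma adjusted p = 0.000142). In whole tissue, fewer cells of a type and less RNA per cell cannot be told apart, and the part of blood or immune cells in this value was not tested. The erythroid list had no member in the table.

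Among miRNAs of fibroblasts and smooth muscle, MIR21, a miRNA of tissue remodelling made from VMP1, was lower in muscle. It measured 2824, 2975, 3552 and 5251 in liver and 1145, 990, 1013 and 901 in muscle, a log2 difference of -1.81 (SE 0.27, limma adjusted p = 0.000737). MIR143, a smooth muscle miRNA, measured 13742, 17294, 23534 and 31919 in liver and 17434, 16332, 17723 and 6976 in muscle. It overlapped and was not called (-0.59, limma adjusted p = 0.219), and neither was MIR199A at -0.58 (limma adjusted p = 0.203). Summed over the 3 members, the list lay between 23734 and 48027 in liver and between 10771 and 27865 in muscle. MIR221, of endothelium, was not called at -0.16, with 332 to 599 in liver and 350 to 587 in muscle. MIR218A, a nerve miRNA made from SLIT3, was lower in muscle, from 46.6 to 79.02 in liver to 16.2 to 34.5 in muscle (-1.36, limma adjusted p = 0.0114), a call lost with quantile normalization (-0.44) and without sheep 977.

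The miRNAs of the imprinted DLK1-DIO3 region, a cluster expressed from the maternal chromosome in other mammals, numbered 54 in the table, of which 25 passed the filter. In muscle 10 were lower, 1 was higher and 14 were not called, with a median of -0.65, against 26.7% called lower over all tested miRNAs. Among the lower calls, MIR136 (means of 12.2 in liver and 2.49 in muscle) and MIR655 (15.3 and 3.58) passed the filter only through liver. MIR494 measured 64.3, 87.7, 81.2 and 114 in liver and 17.8, 12.3, 7.32 and 9.28 in muscle (log2 difference -2.83, SE 0.38, limma adjusted p = 0.000469). MIR411A measured 131, 159, 237 and 274 in liver and 25.1, 41.5, 41.8 and 10.4 in muscle (-2.83, SE 0.46, limma adjusted p = 0.00108). MIR369 measured 33.6, 30.9, 55.4 and 56.4 in liver and 9.42, 5.38, 3.14 and 5.80 in muscle (-2.72, SE 0.43, limma adjusted p = 0.000939). In each of these the 2 tissues were separate.

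MIR379 was lower by -2.11, while MIR127, the member with the highest mean in liver, was not called at -0.27. Its mean was 2254 ± 169 in liver and 1879 ± 192 in muscle (SD, n = 4 each). MIR433 was higher in muscle by 1.27, from 5.95 ± 2.19 to 16.02 ± 6.26 (limma adjusted p = 0.0445). It was the only higher call of the region and was lost in 10 of 21 alternative settings, among them the deposited scale, edgeR, and without sheep 918 or 977, and was 0.016 with the table total. Summed over the region, values lay between 3912 and 4432 in liver and between 2403 and 2993 in muscle, which do not overlap.

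Over all tested miRNAs, 47 had liver and muscle values that did not overlap, or 62.7%. Of these, 24 were higher in muscle.

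Unlike the miRNAs, few snoRNAs were called between tissues in the paired fit, 15 of 183, with 56 at an unadjusted limma p under 0.05. Within codes up to 79, without pairing, 69 of 176 were called, so the low count does not show that snoRNAs differed little. The snoRNAs are identified by number only, and the gene table gives their length and the gene they lie in. LOC114111821, a snoRNA of 134 nt inside DKC1, the gene of the pseudouridine synthase that box H/ACA snoRNAs direct, measured 9.69, 11.2, 4.26 and 12.2 in liver and 88.7, 86.5, 72.3 and 104 in muscle. The groups were well apart and the log2 difference was 3.18 (SE 0.29, limma adjusted p = 0.00264). LOC114114654, of 73 nt, measured 0.830, 4.46, 3.19 and 5.43 in liver and 34.8, 26.4, 34.9 and 38.6 in muscle (3.08, SE 0.38, limma adjusted p = 0.00751).

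A pair of snoRNAs higher in muscle had livers that fell into separate levels. LOC114113431, of 81 nt inside UBAP2, measured 20.5, 21.6, 1.06 and 1.36 in liver and 102, 119.4, 109 and 73.7 in muscle (log2 difference 3.85, SE 0.67, limma adjusted p = 0.0268). LOC114114232, of 75 nt inside ATP5F1B, a gene of the mitochondrial ATP synthase, measured 194, 169, 33.0 and 20.4 in liver and 683, 774, 624 and 842 in muscle (3.38, SE 0.64, limma adjusted p = 0.0333). In both, livers 910 and 918 were several times above livers 977 and 984, the same pairs that stood apart over all transcripts, these snoRNAs included. Neither was called without sheep 977 or without sheep 984.

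**Figure D4:**
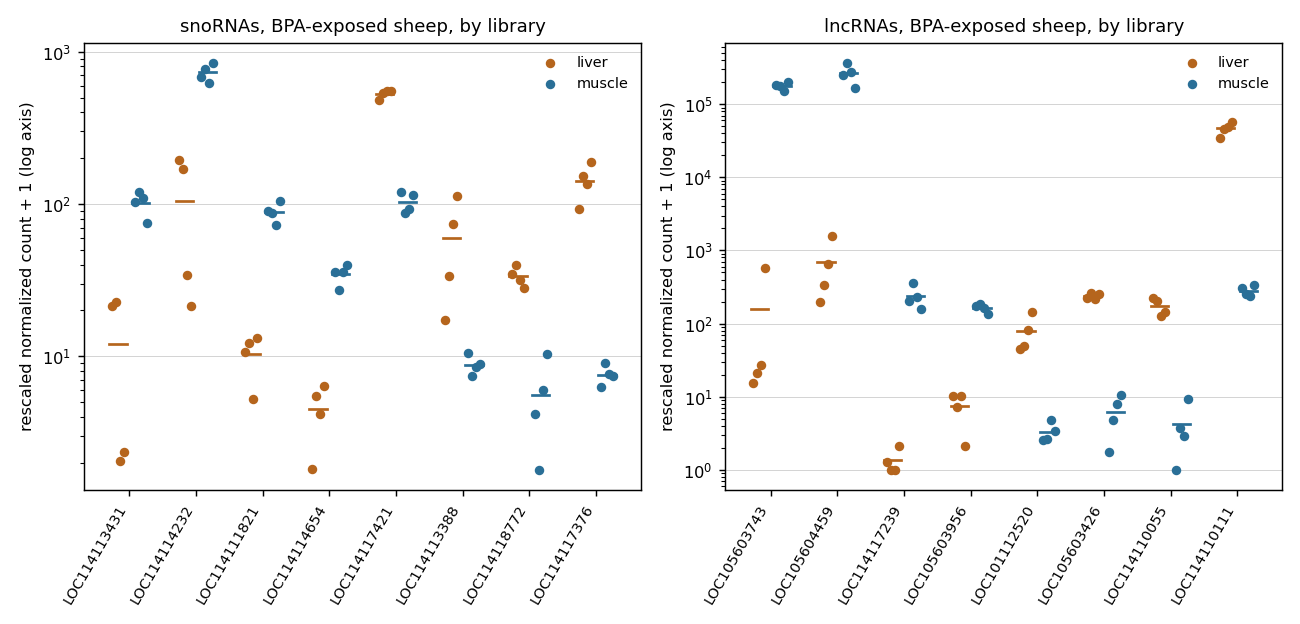
Rescaled normalized count + 1 (logarithmic vertical axis) of 8 snoRNAs (left) and 8 lncRNAs (right) in each liver and muscle library of the BPA animals; points are libraries and bars are means. The livers of LOC114113431 and LOC114114232 fall into separate levels, and LOC105603743 and LOC105604459 are highest in muscle, with liver 984 above the other livers.

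Among the snoRNAs lower in muscle, LOC114117376, of 65 nt, measured 92.4, 152, 134 and 187 in liver and 5.28, 8.01, 6.64 and 6.44 in muscle (log2 difference -4.20, SE 0.28, limma adjusted p = 0.000739). LOC114117421, of 77 nt, measured 479, 533, 551 and 551 in liver and 118, 86.5, 92.2 and 114 in muscle (-2.36, SE 0.30, limma adjusted p = 0.00751). Both were separate between tissues in all libraries, but LOC114117421 lost its call with miRNA factors (-1.09).

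Elsewhere, LOC114113388, of 80 nt inside NCL, which encodes nucleolin, measured 16.3, 32.7, 73.5 and 111 in liver and 9.50, 6.41, 7.47 and 7.87 in muscle (log2 difference -2.43, SE 0.51, limma adjusted p = 0.0419). Its livers again differed between sheep 910 and 918 and sheep 977 and 984, and it lost its call in 6 of 22 alternative settings. LOC114118772, of 70 nt, lies inside the lncRNA LOC114118756 and measured 33.8, 38.7, 30.9 and 27.2 in liver and 3.17, 0.801, 4.98 and 9.30 in muscle (-2.85, SE 0.50, limma adjusted p = 0.0268). LOC114118756 itself was lower in muscle by -3.10 (limma adjusted p = 0.00447). With miRNA factors both lost their calls, at -1.71 and -1.68. Reads that overlap both genes could be counted for either, since the treatment of overlapping genes is not given in the sources used here.

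By length, 94 tested snoRNAs of up to 90 nt, the usual size of the C/D box class that guides methylation, gave 5 higher and 6 lower, and 79 longer ones, mostly the size of the H/ACA class, gave 3 higher and 1 lower. Of all tested snoRNAs 8.2% were called, and the 2 length classes were not tested against each other. Of all tested snoRNAs, 46 had values that did not overlap between tissues (25.1%). Without pairing by animal 36 snoRNAs were called, and without sheep 977 the count was 2.

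The snRNAs gave the least stable comparison. The lowest library held 877 reads. Many of the genes share a length, 164 nt for 15 tested and 191 nt for 7, and may be near-identical copies. How reads that map to several copies were counted was not given in the sources used here. LOC114117038, a 164-nt copy inside TEX14, measured 22.9, 16.3, 2.43 and 0 in liver and 55.5, 17.8, 24.9 and 34.5 in muscle. The groups overlapped, since liver 910 exceeded muscle 918, and the paired log2 difference was 2.36 (SE 0.60, limma adjusted p = 0.00617). LOC114113424, a copy of 126 nt inside CLASP1, measured 15.3, 35.9, 14.6 and 50.0 in liver and 11.7, 1.98, 5.41 and 3.54 in muscle (-2.19, SE 0.63, limma adjusted p = 0.0075). The first lost its call in 7 of 22 alternative settings and the second in 6 of 21.

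Copies of 164 nt, a length typical of U1, numbered 15 among the tested snRNAs. Of these, 3 were higher, against 9.09% called higher over all tested snRNAs. Their median was 0.62 against 0.29 over all tested snRNAs, a table median itself above 0, and 13 were above 0. Copies that share reads would not be separate observations. Copies of 191 nt, a length typical of U2, numbered 7, with 0 called and a median of -0.71, and none above 0. With limma, leaving out sheep 984 left 0 calls of 48 tested (16 at an unadjusted p under 0.05). DESeq2 gave 1 call, which was lower, and 0 higher. Of all tested snRNAs 14 did not overlap between tissues (31.8%).

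A single small set of transcripts filled the lncRNA table, which here holds short reads that fall inside annotated lncRNA genes. In muscle LOC105604459 took 40.5% to 61.6% of its reads and LOC105603743 took 29.9% to 49.3%. In liver LOC114110111 took 41.9% to 52.0%. The gene table places LOC105604459 inside MIB1, an intron of which carries a MIR1 and MIR133 gene in humans, and lists no small RNA gene inside it in sheep. LOC105603743 and LOC114110111 are not in the gene table used for names.

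LOC105604459 measured 196, 340, 643 and 1591 in liver and 252719, 365752, 277306 and 163967 in muscle (log2 difference 8.96, SE 0.56, limma adjusted p = 3.485e-05). LOC105603743 measured 14.4, 19.8, 26.2 and 567 in liver and 183389, 177678, 153460 and 199712 in muscle (11.88, SE 0.79, limma adjusted p = 3.83e-05). Muscle exceeded liver in every animal by orders of magnitude. In both, liver 984 was the highest liver, as it was for MIR133, and a part of muscle RNA in that library was not tested. Without sheep 984 the log2 differences were 9.66 for LOC105604459, 12.97 for LOC105603743 and 11.78 for MIR133.

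LOC114110111 measured 34982, 45801, 49065 and 57723 in liver and 301, 249, 237 and 335 in muscle. The liver values exceeded the muscle values by more than 2 orders of magnitude, and the log2 difference was -7.37 (SE 0.26, limma adjusted p = 1.67e-06). LOC114110055, next to PLSCR4, measured 221, 205, 127 and 141 in liver and 0, 2.73, 1.86 and 8.37 in muscle (-5.75, SE 0.61, limma adjusted p = 0.000289).

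LOC105603426, between BHLHE40 and ITPR1, measured 222, 261, 216 and 254 in liver and 0.763, 3.83, 6.81 and 9.56 in muscle (log2 difference -5.53, SE 0.50, limma adjusted p = 0.000186). LOC101112520 measured 43.5, 47.7, 80.5 and 143 in liver and 1.53, 1.64, 3.72 and 2.39 in muscle (-4.46, SE 0.36, limma adjusted p = 0.000125). The liver values of LOC105603426 varied little among sheep, and those of LOC101112520 were highest in sheep 984.

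LOC114117239 measured 0.294, 0, 0 and 1.09 in liver and 202, 355, 231 and 158 in muscle. The livers held 2 reads and the muscles 1552, a ratio of 789 with a 95% counting interval (exact, counting error only) of 218 to 6523. Its fitted log2 difference was 7.47 (SE 0.44, limma adjusted p = 3.055e-05) and depends on the value added before the logarithm. LOC105603956 measured 9.11, 6.30, 9.05 and 1.09 in liver and 172, 186, 160 and 132 in muscle (4.69, SE 0.46, limma adjusted p = 0.000264).

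Some lncRNA genes hold a miRNA gene, which allows the 2 tables to be set side by side. Of 5 such genes tested, 2 were lower in muscle and 3 were not called, against 22% called lower over all tested lncRNAs. The median of the 5 was -1.11 and the highest 0.66. Only the 2 called lower are named and set beside their miRNA, so they do not stand for such genes in general. LOC105602212, which holds MIR125B, measured 5639, 7759, 10650 and 12349 in liver and 3120, 3164, 2877 and 1731 in muscle, a log2 difference of -1.72 (limma adjusted p = 0.00723). MIR125B itself was higher in muscle by 1.62 on the miRNA scale, where it averaged 6819 ± 2670 in liver and 19728 ± 2848 in muscle (SD, n = 4 each). LOC105605445, which holds MIR221, differed by -1.79 (limma adjusted p = 0.021), and MIR221 by -0.16. The tables were scaled apart, and with the miRNA factors for both the median over all tested lncRNAs was 1.93 in place of 0.26. On that scale LOC105602212 differed by -0.06 and LOC105605445 by -0.14, and neither was called.

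By content, 28 tested lncRNA genes that hold a small RNA or tRNA gene gave 2 higher and 8 lower. Another 35 in the gene table that hold none gave 8 higher and 12 lower, and 69 not in it gave 22 higher and 9 lower. Over all 132, 24.2% were called higher and 22% lower, and 60 had values that did not overlap (45.5%). Without sheep 977 the count of calls fell to 33.

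The makeup of the libraries by class was compared per 100 miRNA reads. The lncRNA table gave 20.6, 19.95, 16.7 and 15.9 reads per 100 miRNA reads in liver and 99.8, 104, 103 and 114 in muscle. Every muscle was far above every liver, the mean log2 ratio was 2.53 ± 0.25 (SD, n = 4 pairs), and the exact sign-flip permutation p was 0.125, the smallest that 4 pairs allow (0.375 after Benjamini-Hochberg adjustment over 3 classes). With MIR133 left out of the denominator the log2 ratio was 3.55. LncRNAs other than LOC105604459, LOC105603743 and LOC114110111 held 46.1% to 57.9% of the table's reads in liver and 8.38% to 10.1% in muscle. The ratio thus follows a few transcripts and does not show that lncRNAs in general were higher in muscle. A ratio with these transcripts left out was not computed.

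The other 2 classes overlapped between tissues. Reads for snoRNAs numbered 2.92, 2.71, 1.20 and 0.944 per 100 miRNA reads in liver and 1.57, 1.30, 1.59 and 2.67 in muscle, with 2 of 4 animals higher in muscle (log2 ratio -0.01, exact permutation p = 1). Reads for snRNAs numbered 0.279, 0.163, 0.190 and 0.137 in liver and 0.180, 0.277, 0.314 and 0.756 in muscle, with 3 of 4 animals higher (log2 ratio 0.83 ± 1.27 (SD), exact permutation p = 0.25, adjusted 0.375). Livers 910 and 918 held more snoRNA reads than livers 977 and 984.

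The same tissue difference was then measured in the control animals, fitted apart so that the sets share no library. In control animals 71.1% of 76 miRNAs, 54.9% of 195 snoRNAs, 83.8% of 37 snRNAs and 54.7% of 148 lncRNAs were called. For miRNAs, 39 of the 41 calls in BPA animals (95.1%) were also called in controls, all in the same direction, which is 73.6% of the control calls among miRNAs tested in both. For lncRNAs 31 were called in both, 29 in the same direction, 53.7% of the BPA calls and 42.6% of the control calls that were tested in both. For snoRNAs 10 were shared, 9 in the same direction, 64.3% and 9.47%, and for snRNAs none of 2 BPA calls tested in both was called in controls.

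**Figure D5:**
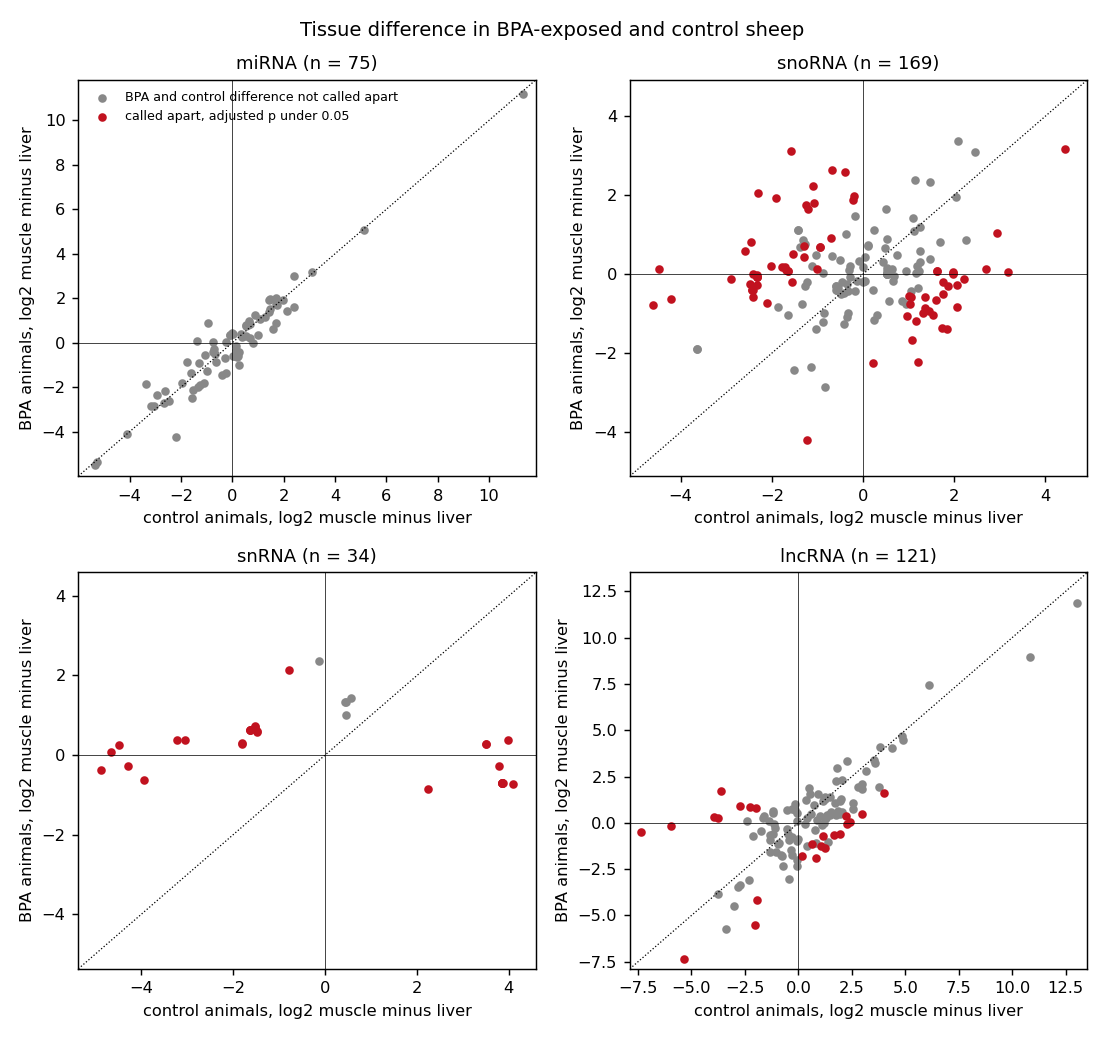
Log2 muscle minus liver in control animals (horizontal axis) and in BPA animals (vertical axis) for transcripts tested in both, by class; red points had tissue differences that differed between BPA and control animals at an adjusted p under 0.05, and the dotted line marks equal values. Most of the 75 miRNAs lie near the line and 0 are red, MIR30B has opposite signs in BPA and control animals, and most snRNAs lie far from the line.

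Whether the tissue difference itself differed between BPA and control animals was tested on the within-animal differences of all 8 animals. Of 75 miRNAs 0 passed with limma (0%), with 7 at an unadjusted p under 0.05. The fit without pairing called 2. MIR133 differed between tissues by 11.17 in BPA animals and 11.32 in controls, MIR194 by -5.49 and -5.34, and MIR148A by -4.10 and -4.12. Across 75 miRNAs the 2 sets of differences correlated by r = 0.96 (rho 0.91), a description across miRNAs that share libraries. MIR200B had -4.23 against -2.17, a difference of -2.04 that did not pass (limma adjusted p = 0.164). MIR30B came closest, with 0.87 in BPA animals and -0.93 in controls, where it was called lower (limma adjusted p = 0.000471). Its difference of 1.82 did not pass (limma adjusted p = 0.0846).

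The other classes had many tissue differences that were not the same in the 2 sets of animals. They passed for 82 of 196 snoRNAs (41.8%), 34 of 41 snRNAs (82.9%) and 32 of 141 lncRNAs (22.7%). Of these, 55 snoRNAs, 26 snRNAs and 21 lncRNAs had opposite signs. Across transcripts tested in both sets, r was 0.13 for 169 snoRNAs, -0.30 for 34 snRNAs and 0.76 for the lncRNAs. With the miRNA factors 150 snoRNAs were called, all higher in BPA animals, in place of 48 higher and 34 lower. Without pairing 56 lncRNAs were called.

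Control livers stood apart in makeup. They gave 12.4 to 41.2 snRNA reads per 100 miRNA reads, against 0.137 to 0.279 in BPA livers, 0.180 to 0.756 in BPA muscle and 0.246 to 0.336 in muscle of controls. For snoRNAs control livers gave 3.69 to 8.48 and BPA livers 0.944 to 2.92. Control livers also held fewer miRNA reads, 94393 to 240815, and 3 of them carry label codes above 97, the highest code of the other libraries. The remaining control liver, 902, carries code 65 and held 38913 snRNA reads and 94393 miRNA reads. Code 65 lies below 71, the lowest code outside the control livers, so no control liver falls within the codes of the other libraries. The part of makeup, depth and codes in the differences that follow was not tested, and a code range held by control livers alone cannot be told apart from treatment.

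In the snoRNA table LOC114117376 differed between tissues by -3.79, -4.05, -4.14 and -4.76 in BPA sheep 910, 918, 977 and 984, and by -0.93, -1.56, -2.11 and -0.69 in control sheep 902, 908, 924 and 928. The 2 sets did not overlap (difference -2.86, SE 0.46, limma adjusted p = 0.00204). Rescaled over all 16 libraries, its mean was 138 ± 39.8 in BPA livers and 19.9 ± 10.3 in control livers, but 6.47 ± 1.02 and 6.80 ± 2.31 in muscle (SD, n = 4 each), so the larger gap between means was in liver. With miRNA factors the difference was -0.30 (limma adjusted p = 0.683) and the call was lost.

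LOC114110868, of 65 nt inside CCAR1, differed by -1.22, -0.84, -1.75 and -1.70 in BPA animals and by 2.14, 0.70, 1.74 and 2.49 in controls (difference -3.14, limma adjusted p = 0.00204). LOC114110520, of 66 nt inside C23H18orf32, differed by -1.19, -0.74, -0.32 and -0.28 in BPA animals and by -4.60, -4.64, -3.67 and -4.36 in controls (3.68, limma adjusted p = 0.000515). The first had opposite signs in the 2 sets and the second the same sign at different sizes. LOC114114248, LOC114118106 and LOC114117663 also passed, at 4.73, 3.38 and -2.98. With miRNA factors LOC114110868 moved to -0.74 and LOC114117663 to -0.30, and both lost their calls. LOC114113431 differed by 4.65, with muscle at 99.9 ± 22.1 in BPA animals and 1.49 ± 1.002 in controls, so for this snoRNA in UBAP2 the larger gap between means was in muscle. LOC114111821 in DKC1 was higher in muscle in both sets, by 3.18 and 4.34 on the common scale (difference -1.16, limma adjusted p = 0.0393). That call was lost in 8 of 14 alternative settings, among them leaving out any of 6 of the 8 sheep, and the sign changed in 1.

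In the snRNA table the 191-nt copy LOC114110196 averaged 235 ± 33.8 in BPA livers, 184 ± 98.7 in BPA muscle, 9.74 ± 9.10 in control livers and 196 ± 19.1 in control muscle. Its tissue difference was -5.02 lower in BPA animals (SE 0.61, limma adjusted p = 0.000156). LOC114117116 and LOC114117114, whose values were nearly the same, had -5.50 each and LOC114113424 had -5.01. The 164-nt copies went the other way: LOC114115462 had 2.31 and LOC114115947 had 3.08, and LOC114111409, not in the gene table, had 1.25. In all 7 the control livers had the lowest or the highest mean of the 4 groups. The lower calls depended on the scale. With miRNA factors LOC114110196 turned to 1.41 (limma adjusted p = 0.272), LOC114117114 and LOC114117116 to 0.85, and LOC114113424 moved to -0.27 (limma adjusted p = 0.796). The 34 snRNA calls, 18 higher and 16 lower in BPA animals, became 34 higher and 0 lower on that scale. LOC114111409 lost its call on the deposited scale and without sheep 928. Leaving out sheep 928 took the calls of the table from 34 to 21.

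In the lncRNA table LOC105607806, which lies next to HES7 and holds an snRNA and a tRNA gene, differed between tissues by -1.19, 0.67, -1.69 and -0.30 in BPA animals and by -5.73, -8.83, -8.25 and -7.05 in controls. The sets were far apart (difference 6.84, SE 0.78, limma adjusted p = 0.000325), with means of 38.2 ± 10.8 in BPA livers and 2137 ± 942 in control livers. LOC101110918, which holds 2 snoRNA genes, among them LOC114114248, had 5.71 (limma adjusted p = 0.000341), and LOC114118468, which holds 3 tRNA genes, had 4.24 (limma adjusted p = 0.000672).

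In the opposite direction LOC105603426 had -3.55 (limma adjusted p = 0.00565), LOC114118845 had -2.67 and LOC114118399 had -2.37. LOC114110111, the most read lncRNA of liver, was lower in muscle in both sets, by -7.51 in BPA animals and -5.45 in controls on the common scale. The difference of -2.06 passed (SE 0.47, limma adjusted p = 0.0141), with 49801 ± 3655 in BPA livers and 15796 ± 4674 in control livers, but not without sheep 928 or 977. With miRNA factors it was -0.48 (limma adjusted p = 0.43), and LOC105603426 (-2.06), LOC114118845 (-1.23) and LOC114118399 (-0.79) lost their calls too. The split of all lncRNA calls, 16 higher and 16 lower in BPA animals, became 34 and 0 on that scale. LOC105604459 and LOC105603743 differed by -1.93 and -1.18 between the sets and did not pass (limma adjusted p = 0.0541 and 0.49). With control sheep 928 left out 10 lncRNAs passed, and with BPA sheep 977 left out 15.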

How the data were processed

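Small RNA libraries of muscle and liver were read from 4 deposited tables of normalized counts, a signal that the authors made by dividing read counts by a size factor per library, set separately in each table and tissue as the values show. Tools listed in the submitters' processing notes, with no role stated, are featureCounts 1.6.1, STAR 2.6.0c and cutadapt 3.2. Genome build, annotation, strand setting and the handling of reads that map to several copies were not given in the sources used here. Dividing by the step of each library gave whole reads for 100% of deposited values (tolerance 0.001).

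Values were rescaled by median of ratios over the 8 BPA libraries within a table, on 79 miRNAs, 212 snoRNAs, 49 snRNAs and 195 lncRNAs present in all 8. This removed a deposited muscle-minus-liver offset of -0.66, -0.73, -1.71 and 0.42 log2 units. Transcripts with a mean of at least 5 were tested with limma 3.58.1 (R 4.3.3, mean-variance trend) on log2(value + 1), two-sided, with the animal as a block and Benjamini-Hochberg adjustment within the table at 0.05. The tissue difference in BPA and control animals was compared on within-animal differences after rescaling over 16 libraries. The code was tested on simulated data.

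The animal number pairs libraries because it marks the same sheep. Deviations from the tissue mean correlated within animals by -0.05, 0.02, 0.13 and -0.25 over 434 transcripts, and 1 of 4 muscles was closest to its own liver. Animals are separate biological replicates. In miRNA reads, every pair of BPA libraries of one tissue differed beyond sampling noise (lowest chi-square over its degrees of freedom, 49.8), and the other tables and the controls were not checked. Read totals count reads assigned to listed transcripts only, and low totals limit the snRNA and snoRNA values most.

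The members and gene lists were chosen with earlier results of these data known. Named transcripts are, among calls with all 4 animals in the same direction and a mean of at least 20 in the higher tissue, the 8 higher and 8 lower miRNAs and the 4 higher and 4 lower transcripts of each other table with the largest differences, the 5 most abundant miRNAs per tissue, all measured cell type markers, and the 3 higher and 3 lower per table with the smallest p between BPA and control animals. Other transcripts named are examples of their lists or of counts of 5 or fewer, chosen after their values were seen. Alternatives were other scales, pseudocounts, filters, edgeR 4.0.16 and DESeq2 1.42.0 on recovered reads, library code, no block, and leaving out each animal. Thinning reads to the shallowest library, and the unpaired fit in control animals, were added after seeing the data. Names, lengths and neighbours come from the RefSeq gene table of assembly ARS-UI_Ramb_v3.0, where 100% of miRNA, 89.5% of snoRNA, 88.0% of snRNA and 46.1% of lncRNA symbols were found, and no coordinates or sequences are given. The neighbourhood of 1 group of snoRNAs is not reported here.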

Additional observations from a re-analysis of the deposited data

Results flagged for a closer look

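Each of the 126 sets of 4 libraries behind a named transcript or a class share was checked for a library far from the other 3 relative to the range of the set (Dixon's ratio above 0.829), and 8 sets held such a library. Chance gives about 1 in 20. Of the 8, 6 were libraries of sheep 984. Liver 984 held 463 for MIR133, against 92.8 to 126 in the other livers, and 567 for LOC105603743, against 14.4 to 26.2. It held 19.02 for the snoRNA LOC114118106, against 46.1 to 51.1. Muscle 984 held 6976 for MIR143, against 16332 to 17723, with 57250 for MIRLET7A, against 29657 to 32467, and 6738 for MIRLET7D, against 3086 to 3459. Liver 918 held 149 for MIR200C, against 25.6 to 42.5. Muscle 910 held 4.58 for LOC114118845, against 8.96 to 9.30.

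For 22 named transcripts the tissue difference in BPA animals differed from that in control animals by the limma test of the within-animal differences. For snoRNAs the differences between the sets were 3.68 for LOC114110520, -3.14 for LOC114110868, -1.16 for LOC114111821, 4.65 for LOC114113431, 4.73 for LOC114114248, -2.86 for LOC114117376, -2.98 for LOC114117663 and 3.38 for LOC114118106. For snRNAs they were -5.02 for LOC114110196, 1.25 for LOC114111409, -5.01 for LOC114113424, 2.31 for LOC114115462, 3.08 for LOC114115947, and -5.50 for both LOC114117114 and LOC114117116. For lncRNAs they were 5.71 for LOC101110918, -3.55 for LOC105603426, 6.84 for LOC105607806, -2.06 for LOC114110111, -2.37 for LOC114118399, 4.24 for LOC114118468 and -2.67 for LOC114118845. Most of the 22 were named for their small p in this same test.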

How the results depend on the processing

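The miRNA count of 41 stayed within 1.5 times under every alternative run (39 to 60), and between 32 and 49 with a sheep left out. The snoRNA count of 15 was 36 with no replicate block, 53 on the deposited scale, 38 with miRNA factors, 7 at a minimum mean of 20, 46 with DESeq2, 34 with adjustment over the 4 tables, 31 with all 16 libraries in the fit, 59 with the code range as a covariate, 69 within codes up to 79, and 2 to 18 with a sheep left out. The snRNA count of 5 was 46 on the deposited scale, 12 with the table total, 3 with TMM, 35 with miRNA factors, 22 with one factor over the tables, 8 without a filter, 0 at a minimum mean of 20 (8 at an unadjusted p under 0.05 with limma), 1 with DESeq2, 1 with all 16 libraries, 20 with the code range, 2 within codes up to 79, and 0 to 5 with a sheep left out. The lncRNA count of 61 was 126 with the table total, 116 with miRNA factors, 128 without a filter, 26 at a minimum mean of 20, and 33 to 65 with a sheep left out. The TMM scale with edgeR split the lncRNA calls into 39 higher and 17 lower, and one factor over the tables split them 38 to 19 and the miRNA calls 5 to 44. The lncRNA log2 ratio per miRNA read of 2.53 was 3.55 without MIR133. Between BPA and control animals, the miRNA count of 0 was 2 with no replicate block, 4 with adjustment over the tables and 0 to 6 with a sheep left out. The snoRNA count of 82 was 150 with miRNA factors and 49 at a minimum mean of 20, and 65 to 86 with a sheep left out. The lncRNA count of 32 was 56 with no replicate block and 10 to 34 with a sheep left out, and the snRNA count of 34 was 21 to 35. The block moved no other count by over 1.5 times. Thinning the reads to the shallowest library, an alternative chosen after seeing the data, gave 40 miRNAs, 17 snoRNAs, 5 snRNAs and 42 lncRNAs, and the fit of the control animals without pairing gave 55, 107, 32 and 88, each within 1.5 times. Of 1770 alternative tissue differences of 81 named transcripts, 1575 kept direction and call, 104 lost the call, 65 gained it and 26 changed sign. Of 305 alternative values of the 22 differences between BPA and control animals, 281 kept direction and call, 20 lost the call and 4 changed sign. With the table total, values became -1.12 for MIR26A, -0.99 for MIR99A, -0.26 for MIRLET7A, -0.59 for MIRLET7G, -0.0041 for MIR30D, -0.43 for MIR23B, -0.53 for MIR25, -0.31 for MIR16B, -0.56 for MIRLET7I, -1.11 for MIRLET7F and -1.92 for LOC114118468. With one factor over the tables they became -1.05 for MIR26A, -0.18 for MIRLET7A, -0.52 for MIRLET7G, -0.36 for MIR23B, -0.46 for MIR25, -0.24 for MIR16B, -0.49 for MIRLET7I and -1.03 for MIRLET7F, and with quantile normalization -1.35 for MIR26A. With miRNA factors they became 2.02 for LOC114110196, 1.67 for LOC114115462, 1.83 for LOC114115947, 1.35 for LOC101110918, 1.62 for LOC114118399 and 0.18 for LOC114118845. On that scale the difference between BPA and control animals became 1.17 for LOC114111821, 1.41 for LOC114110196 and 0.85 for LOC114117114 and LOC114117116. The cause of these changes was not tested beyond the scale itself. Few snRNA reads, 877 in the shallowest library, limit that table most.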
